A study of Mus musculus with 16 samples.

Results

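The 9 genes described here encode cell-surface proteins that sense or break down extracellular nucleotides. They are 4 P2Y receptors (P2ry12, P2ry13, P2ry14 and P2ry6), 2 P2X channels (P2rx4 and P2rx7), the ectonucleotidases Entpd1 and Nt5e, and the adenosine receptor Adora2b. The members were chosen by gene symbol, and 9 of 9 were found among 13733 genes listed for mouse knee joint cells. All 9 passed the filter on low values, which kept 13173 genes. Levels are given in CPM, reads scaled to the size of the library, and the filter asked for 1 CPM or more in 4 or more of the libraries.

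The study compared C57BL/6 wildtype (WT) mice with Trem2-/- mice, which lack the myeloid lipid receptor TREM2, in a knee injury model. WT D0 and Trem2-/- D0 were uninjured, and WT D7 and Trem2-/- D7 were taken 7 days after a single tibial compression that ruptures the anterior cruciate ligament. Each of the 4 groups held 4 libraries, 16 in all, of poly(A) RNA. Per the labels the mice were injured at 10 weeks of age, but an age of 16 weeks is also given. The label protocol that repeats this age describes homogenized joints of T1DM mice, a group no sample here carries, so both details are in doubt. The study's methods describe male mice on the C57BL/6J background, a germline Trem2 allele (em2Adiuj), and cells freed from the joint with collagenase. Buprenorphine and saline were given right after injury, uninjured mice are not said to have received them, and if they did not, injury and analgesic cannot be told apart. Trem2-/- and WT mice came from separate stocks, and littermate controls were not described.

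Damaged and activated cells release ATP and UTP, which act on P2X channels and P2Y receptors as danger signals. CD39, the product of Entpd1, converts ATP and ADP to AMP, and CD73, the product of Nt5e, converts AMP to adenosine, which acts on receptors such as A2B and generally dampens inflammation. P2Y12 is the ADP receptor that clopidogrel blocks on platelets, and it is also a defining gene of resting microglia, the macrophages of the brain.

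The genes of P2Y12, P2Y13 and P2Y14 are neighbours. In the mm10 (GRCm38) genome with GENCODE M21 annotation, P2ry12 spans chromosome 3 from 59216272 to 59262871, P2ry13 from 59207892 to 59210882, and P2ry14 from 59113855 to 59153618. All 3 are transcribed from the minus strand inside Med12l, a gene on the opposite strand. The gap between P2ry13 and P2ry12 is 5.39 kb, and that between P2ry14 and P2ry13 is 54.27 kb. Only 9 exonic bases of P2ry12, or 0.353%, overlap a Med12l exon on the other strand, and P2ry13 and P2ry14 share none. P2rx7 (chromosome 5, 122643911 to 122691432) and P2rx4 (122707544 to 122729738) are also neighbours, 16.11 kb apart on the plus strand. The other members stand alone. P2ry6 lies on chromosome 7 (100937630 to 100974649), Entpd1 on chromosome 19 (40612366 to 40741602), Nt5e on chromosome 9 (88327197 to 88372092) and Adora2b on chromosome 11 (62248984 to 62266453).

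Sequence upstream of a RefSeq transcript start is shown for each of the 3 neighbouring receptor genes. As described below, these neighbours moved in different directions in CPM after injury. The sequences are RefSeq reference sequence of GRCm38.p6, minus strand, read 5′ to 3′. Capitals mark matches, on either strand, to GAGGAA (a PU.1-type core), TGANTCA (a pattern looser than the AP-1 motif) and ACGTG (the core of the hypoxia response element, here within the palindrome CACGTG). N stands for any base, and the TGANTCA match shown has A there. Each covers the 250 bases before a RefSeq transcript start, except for P2ry12, whose window overlaps a Med12l exon. For P2ry12 only 30 bases are given. They were picked because they surround its ACGTG match, and their first base lies 240 bases before the start.
P2ry12, chr3:59263196-59263225: cccatgggttcaCACGTGatgacatcgcag
P2ry13, chr3:59210883-59211132: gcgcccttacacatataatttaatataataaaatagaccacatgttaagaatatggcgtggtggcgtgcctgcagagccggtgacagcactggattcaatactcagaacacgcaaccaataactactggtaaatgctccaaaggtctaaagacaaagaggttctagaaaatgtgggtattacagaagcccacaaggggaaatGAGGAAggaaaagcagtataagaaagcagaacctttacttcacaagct
P2ry14, chr3:59131329-59131578: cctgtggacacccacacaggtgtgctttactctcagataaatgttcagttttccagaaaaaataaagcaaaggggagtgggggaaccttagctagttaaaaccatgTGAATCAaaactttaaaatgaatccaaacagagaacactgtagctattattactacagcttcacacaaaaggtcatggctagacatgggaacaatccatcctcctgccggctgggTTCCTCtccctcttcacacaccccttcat

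The full window of P2ry12 held 0 GAGGAA, 0 TGANTCA and 2 ACGTG matches, both within the palindrome CACGTG. The window of P2ry13 held 1 GAGGAA, and that of P2ry14 held 1 GAGGAA, read on the other strand as TTCCTC, and 1 TGANTCA. Among 32851 promoter windows of the same 250 bases, 23.3% held GAGGAA, 6.75% TGANTCA and 16.6% ACGTG. These are letter matches only. Promoter entries were found for 8 of the 9 members, 13 entries in all, and the P2ry14 entry shown is the 1 of its 4 entries that overlaps no annotated exon. It lies within the annotated P2ry14 gene, before the start of a shorter transcript, not before the gene's outermost start.

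Library totals ranged from 11567073 to 32867818 reads over the listed genes, so that 3 reads corresponded to between 0.101 and 0.250 CPM, and every value of a member lay above that floor. Trem2, the targeted gene, ranged from 2.51 to 5.61 CPM in WT D0, from 10.7 to 22.5 in WT D7, from 0.948 to 2.68 in Trem2-/- D0 and from 3.42 to 4.84 in Trem2-/- D7. Its groups did not overlap at D7 (log2 difference -1.72 ± 0.246 SE, limma adjusted p = 0.0503; two-sided exact permutation p = 0.0286), and they overlapped at D0, where the difference was -0.98. Markers of joint cell types were present in every group. Summed over 10 markers, macrophage genes ranged from 252 to 411 CPM in WT D0, 565 to 767 in WT D7, 312 to 359 in Trem2-/- D0 and 447 to 523 in Trem2-/- D7, and none of the 10 was at 0 in any library. From D0 to D7 all 10 had higher values in WT mice, whereas in Trem2-/- mice 7 were higher and 3 lower. Cd68, for example, had means of 85.5 CPM in Trem2-/- D0 and 63.6 in Trem2-/- D7. Summed pan-leukocyte genes (6 markers) ranged from 2093 to 4293 CPM in WT D0, 1214 to 2556 in WT D7, 2653 to 4602 in Trem2-/- D0 and 902 to 1132 in Trem2-/- D7. In these bulk libraries, fewer cells of a type and less RNA per cell cannot be told apart.

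Per kilobase of annotated exon, the ectonucleotidases stood far above the receptors in every group. In WT D0, Entpd1 reached 89.1 ± 11.9 CPM per kb (mean ± SD, n = 4) and Nt5e 33.6 ± 9.23, and their ranges did not overlap. P2rx4, with 2.81 ± 0.343 CPM per kb, came next, followed by Adora2b, P2ry6, P2rx7 and P2ry13, and the ranges of neighbours in this stretch of the order overlapped. P2ry12 (0.642 ± 0.213 CPM per kb) and P2ry14 (0.288 ± 0.0516) were lowest, each apart from the gene above it. The annotated exons of P2ry14 add up to 11.059 kb over all of its transcripts, against 2.546 kb for P2ry12, and which of its exons these cells use was not tested. In WT D7 the ranges of Entpd1 (79.7 ± 35.6 CPM per kb) and Nt5e (54.1 ± 19.97) overlapped, and P2ry12, at 1.59 ± 0.248, overlapped Adora2b above it and P2ry13 below it. P2ry14 was lowest in all 4 groups, at 0.265 ± 0.0476 CPM per kb in Trem2-/- D0 and 0.108 ± 0.0289 in Trem2-/- D7.

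**Figure D1:**
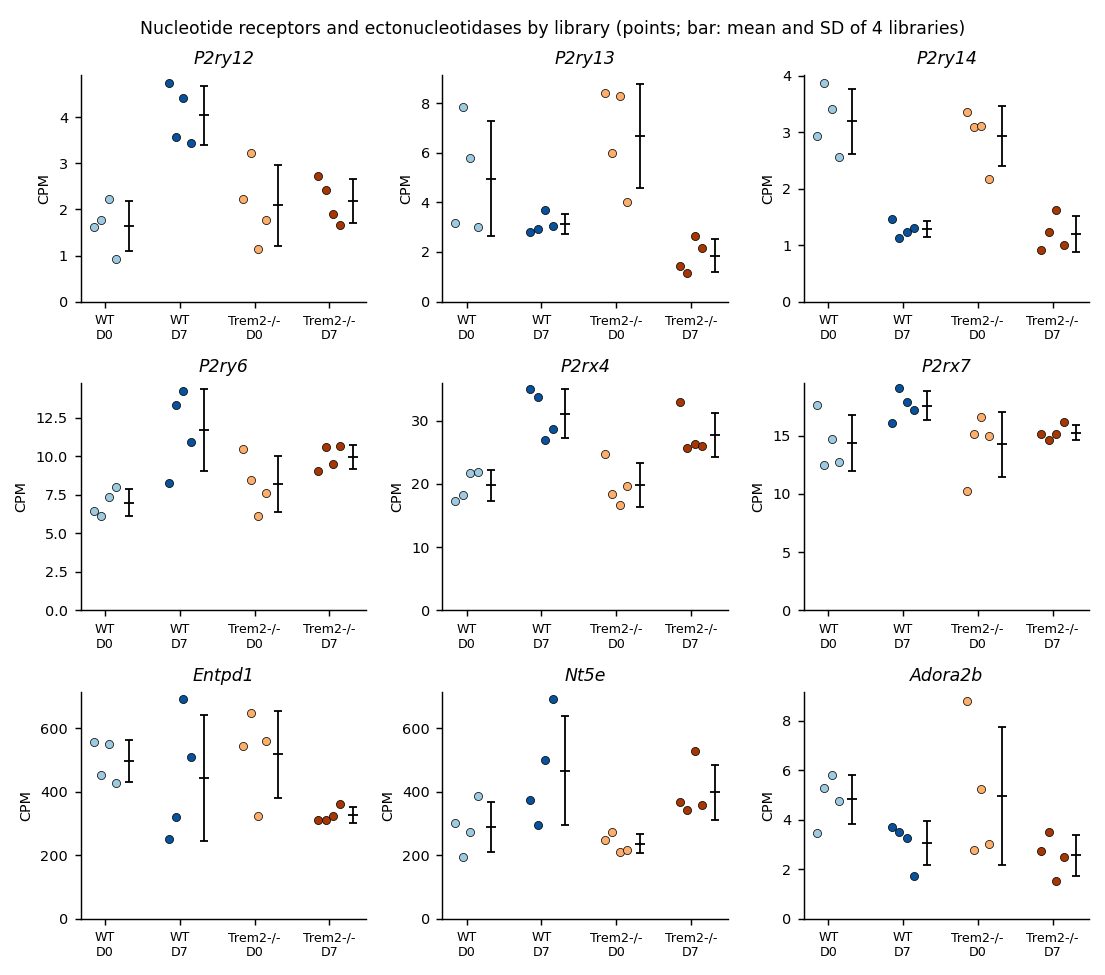
CPM of the 9 members in each of 16 libraries, 1 panel per gene with the axis from 0; points are single libraries in the order of the replicate numbers, and the bar beside each group gives its mean and SD. The 4 WT D7 libraries of P2ry12 lie between 3.44 and 4.74 CPM, above all 12 other libraries.

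P2ry12 was higher 7 days after injury in WT mice but not detectably so in Trem2-/- mice. In WT D0 the 4 libraries held 1.61, 1.77, 2.23 and 0.926 CPM, and in WT D7 they held 4.74, 3.57, 4.41 and 3.44 CPM. All WT D7 values were above all WT D0 values, with 17 to 42 reads per library at D0 and 58 to 128 at D7. On the log2(CPM + 1) scale used for every test, the difference was 0.95 ± 0.205 SE (limma, adjusted p = 0.00467; two-sided exact permutation p = 0.0286, the smallest that 4 against 4 libraries allow). In Trem2-/- D0 the libraries held 2.22, 3.22, 1.13 and 1.78 CPM, and in Trem2-/- D7 they held 2.72, 2.41, 1.90 and 1.67 CPM. These groups overlapped, and the difference was 0.07 ± 0.205 SE (95% interval -0.36 to 0.51, limma adjusted p = 0.784).

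P2ry13, the other ADP receptor of the cluster, fell in CPM after injury in Trem2-/- mice. It held 8.40, 6.00, 8.29 and 4.02 CPM in Trem2-/- D0 and 1.45, 1.172, 2.63 and 2.17 CPM in Trem2-/- D7, without overlap. The difference was -1.41 ± 0.262 SE (limma adjusted p = 4.41e-04), the largest fall among the members. In WT D0 the libraries held 3.17, 7.84, 5.79 and 3.00 CPM, and in WT D7 2.79, 2.95, 3.69 and 3.03 CPM. The WT D0 libraries spread widely, the groups overlapped, and the difference of -0.46 ± 0.262 SE did not pass (limma adjusted p = 0.194). It did pass the unadjusted threshold without WT D0 replicate 1 (-0.60) or replicate 4 (-0.62).

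P2ry14, a receptor for UDP-glucose and related UDP-sugars, fell in CPM in both genotypes. Its libraries held 2.93, 3.87, 3.40 and 2.56 CPM in WT D0 and 1.46, 1.13, 1.24 and 1.31 CPM in WT D7. In Trem2-/- D0 they held 3.36, 3.09, 3.10 and 2.16 CPM, and in Trem2-/- D7 0.907, 1.24, 1.62 and 1.00 CPM. Injured and uninjured libraries did not overlap in either genotype. The differences were -0.87 ± 0.144 SE in WT (limma adjusted p = 0.00127) and -0.84 ± 0.144 SE in Trem2-/- mice (limma adjusted p = 2.41e-04). Of the 3 neighbours, P2ry12 thus rose in CPM, P2ry14 fell and P2ry13 did not pass in WT mice. In Trem2-/- mice P2ry13 and P2ry14 fell in CPM and P2ry12 did not pass. Ratios to marker sums, given below, did not all follow these directions.

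**Figure D2:**
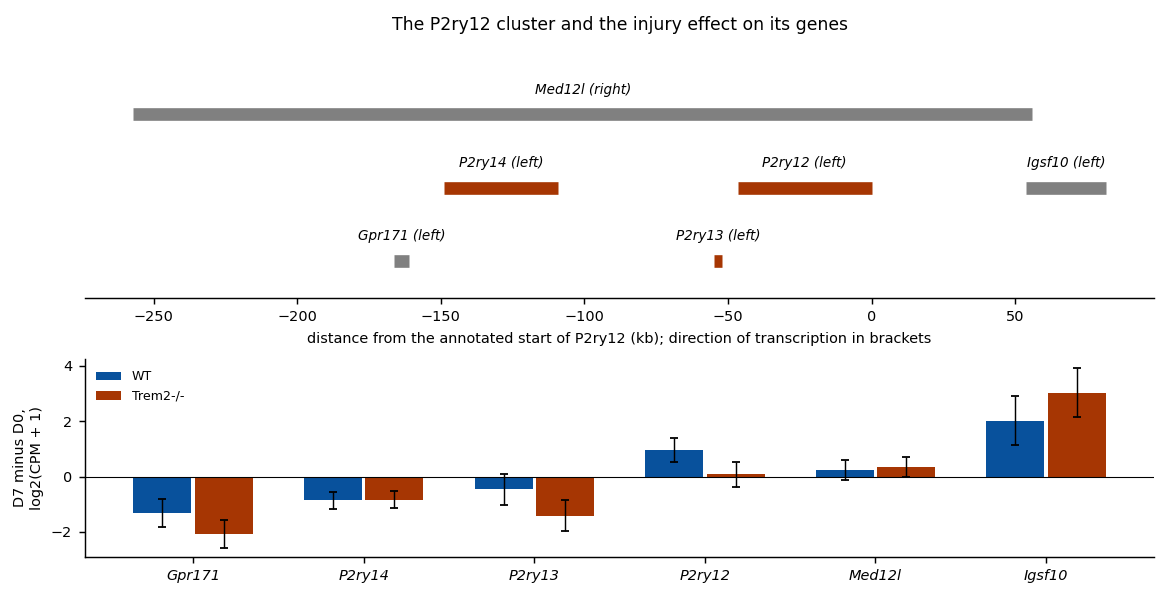
Top, the P2ry12 cluster drawn to scale as distance in kb from the annotated start of P2ry12, with receptor members in brown and the other measured genes in grey; bottom, the injury difference (D7 minus D0, log2(CPM + 1)) of each measured gene with its 95% interval in WT and Trem2-/- mice. P2ry12 differs by 0.95 in WT and 0.07 in Trem2-/- mice, whereas P2ry14 differs by -0.87 and -0.84.

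Other genes of the cluster were read for comparison. Gpr171, a G protein-coupled receptor gene on the same strand beyond P2ry14, fell from 14.9 ± 4.92 to 5.202 ± 1.40 CPM in WT mice and from 14.2 ± 2.88 to 2.58 ± 0.470 CPM in Trem2-/- mice (log2 differences -1.33 and -2.08; limma adjusted p = 0.00166 and 1.78e-05). Med12l, the host gene, differed by 0.24 and 0.34 and passed in neither genotype. Med12l was at 2.98 ± 0.732 CPM in WT D0 and 3.67 ± 0.609 in WT D7, and its injury difference was not tested against that of P2ry12. Whether reads were counted by strand is not given in the sources used here. Igsf10, which overlaps the end of Med12l on the other strand, rose by 2.01 and 3.03. It shares 19.8% of its exonic bases with genes on the other strand, nearly all of them with Med12l. Med12l in turn shares 17.3% of its exonic bases with genes on the other strand, mostly with Igsf10. The part of this overlap in the Med12l values was not tested.

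P2ry6, the UDP receptor that in microglia triggers engulfment, rose in WT mice. Its libraries held 6.45, 6.12, 7.39 and 8.01 CPM in WT D0 and 8.29, 13.3, 14.2 and 10.9 CPM in WT D7. The groups did not overlap, although the lowest WT D7 library stood just above the highest WT D0 library (0.65 ± 0.168 SE, limma adjusted p = 0.0120). In Trem2-/- mice it ranged from 6.14 to 10.5 CPM at D0 and from 9.07 to 10.7 at D7, with overlap (0.27 ± 0.168 SE, limma adjusted p = 0.179). It passed the unadjusted threshold in Trem2-/- mice without Trem2-/- D0 replicate 1 (0.39).

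The ATP-gated channel gene P2rx4 rose in both genotypes, and P2rx7 passed in neither. P2rx4 held 17.2, 18.2, 21.7 and 21.9 CPM in WT D0 and 35.0, 33.7, 26.9 and 28.7 CPM in WT D7. In Trem2-/- D0 it held 24.7, 18.3, 16.6 and 19.7 CPM, and in Trem2-/- D7 33.0, 25.7, 26.4 and 26.0 CPM. Neither genotype had overlapping groups. The differences were 0.63 ± 0.136 SE in WT (limma adjusted p = 0.00484) and 0.47 ± 0.136 SE in Trem2-/- mice (limma adjusted p = 0.00893). P2rx7, the channel whose opening by ATP activates the NLRP3 inflammasome, ranged from 12.5 to 17.7 CPM in WT D0 and from 16.1 to 19.1 in WT D7. Its difference was 0.28 in WT (95% interval -0.02 to 0.58) and 0.11 in Trem2-/- mice (-0.18 to 0.41). It passed the unadjusted threshold in WT mice without WT D0 replicate 1 (0.38).

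Of the ectonucleotidases, Nt5e passed unadjusted as higher in both genotypes, and after adjustment only in Trem2-/- mice. Entpd1 was lower in Trem2-/- mice by the unadjusted test alone. For neither gene did the injury effects differ between the genotypes past the unadjusted threshold. Nt5e (CD73) held 246, 274, 209 and 215 CPM in Trem2-/- D0 and 367, 341, 528 and 357 CPM in Trem2-/- D7, without overlap (0.74 ± 0.244 SE, limma adjusted p = 0.0193). In WT it ranged from 195 to 388 CPM at D0 and from 296 to 690 at D7. The WT difference of 0.65 ± 0.244 SE passed unadjusted but not adjusted (limma adjusted p = 0.0559; exact permutation p = 0.143). It also did not pass without WT D0 replicate 2 (0.48) or WT D7 replicate 4 (0.44). Summed fibroblast genes (7 markers) also moved with injury, from 4652 to 36730 CPM in WT D0 to between 54354 and 80930 in WT D7, and from 4138 to 8466 in Trem2-/- D0 to between 75002 and 103070 in Trem2-/- D7. The part of these cells in the Nt5e result was not tested.

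Entpd1 (CD39) held 558, 454, 550 and 427 CPM in WT D0 and 253, 321, 694 and 511 CPM in WT D7. The WT D7 libraries fell on both sides of the WT D0 range, and the difference of -0.26 ± 0.267 SE did not pass. In Trem2-/- D0 it held 544, 647, 322 and 559 CPM, and in Trem2-/- D7 311, 311, 322 and 362 CPM. The Trem2-/- difference of -0.62 ± 0.267 SE passed unadjusted (limma adjusted p = 0.0615; exact permutation p = 0.0857) and was lost when any of Trem2-/- D0 replicates 1, 2 and 4 or Trem2-/- D7 replicates 1, 2 and 3 was left out, with values from -0.62 to -0.50.

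Adora2b, the low-affinity adenosine receptor, was lower after injury in Trem2-/- mice by the unadjusted test. It held 8.80, 2.78, 5.25 and 3.01 CPM in Trem2-/- D0 and 2.72, 3.51, 1.51 and 2.50 CPM in Trem2-/- D7, with overlap, and the Trem2-/- D0 libraries alone spanned more than the change. The difference was -0.66 ± 0.282 SE (limma adjusted p = 0.0590; exact permutation p = 0.143), and without Trem2-/- D0 replicate 1 it was -0.39 and did not pass. It also failed without Trem2-/- D0 replicate 3 (-0.60), Trem2-/- D7 replicate 3 (-0.51) or Trem2-/- D7 replicate 4 (-0.67), with quantile normalization (-0.63) and when only the 2 groups compared were fitted (-0.66). In WT it ranged from 3.47 to 5.79 CPM at D0 and from 1.72 to 3.69 at D7 (-0.54 ± 0.282 SE, limma adjusted p = 0.157), and passed the unadjusted threshold without WT D0 replicate 1 (-0.66) or with only these groups fitted (-0.54).

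Counted together, 5 of 9 members passed the study's call rule (unadjusted p under 0.05 and, from the study's minimum fold change, a log2 difference beyond 0.32 in either direction) for D7 against D0 in WT mice, 4 higher and 1 lower. Of all genes tested 37.4% passed, 19.3% as higher and 18.2% as lower. In Trem2-/- mice 6 of 9 passed, 2 higher and 4 lower, where 54.5% of all genes passed, 26.5% as higher and 27.9% as lower. At an adjusted p under 0.05 the counts were 4 of 9 in WT, against 28.5% of all genes, and 4 of 9 in Trem2-/- mice, against 53.2%. Groups did not overlap for 4 of 9 members in WT mice, where 22.2% of all genes had no overlap, and for 4 of 9 in Trem2-/- mice, where 52.4% had none. The median difference of the members was 0.28 in WT and 0.07 in Trem2-/- mice, beside -0.04 over all genes in each genotype. Both injury comparisons moved a large part of all genes, and the members' share in Trem2-/- mice lay near that background.

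**Figure D3:**
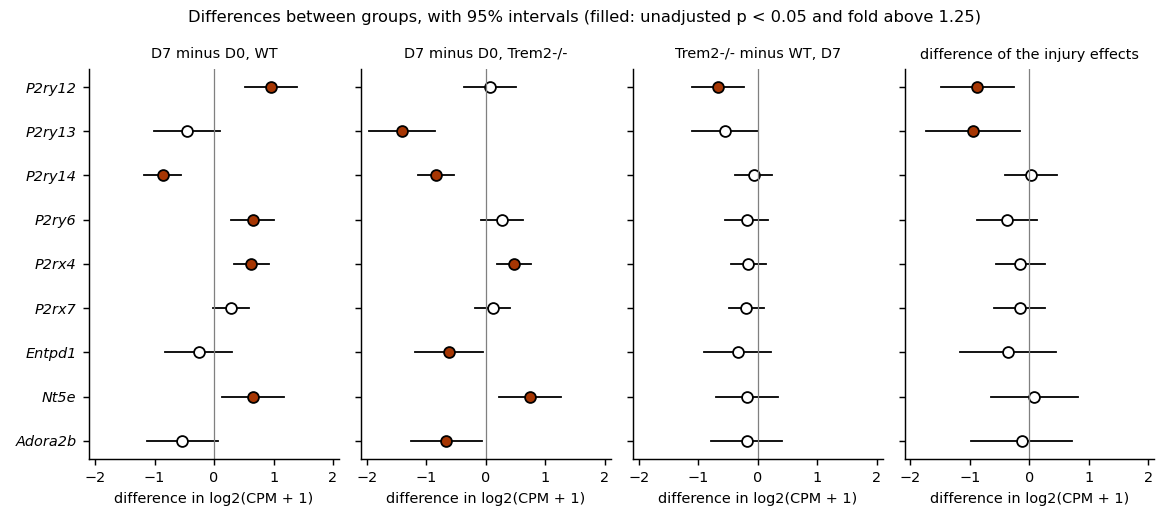
Differences in log2(CPM + 1) with 95% intervals for the 9 members in 4 comparisons; filled points passed the call rule. P2ry12 passes in WT mice (0.95), between genotypes at D7 (-0.67) and for the difference of the injury effects (-0.88).

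Between the genotypes at D7, P2ry12 was the 1 member of 9 that passed, where 5.72% of all genes passed, 4.53% as lower. The study had itself reported this gene, as P2y12, to be lower in Trem2-/- mice at D7 in its bulk RNA-seq. That report came from these same libraries, so the call is a known result read again and not a second test of it. Members were also chosen with earlier results of these data known, so the count of 1 of 9 is no independent finding. After adjustment 0 genes passed with limma, against 958 at an unadjusted p under 0.05, and 0 passed with edgeR, 1 with voom and 39 with DESeq2. The 4 Trem2-/- D7 libraries, from 1.67 to 2.72 CPM, lay below the 4 WT D7 libraries, from 3.44 to 4.74 CPM. The difference was -0.67 ± 0.205 SE (95% interval -1.10 to -0.23; limma adjusted p = 0.475; exact permutation p = 0.0286). Leaving out each library in turn gave differences from -0.75 to -0.59, each past the unadjusted threshold. P2ry13 also had no overlap at D7, with 1.172 to 2.63 CPM in Trem2-/- and 2.79 to 3.69 CPM in WT mice. Its difference of -0.55 ± 0.262 SE fell just short of the unadjusted threshold (limma adjusted p = 0.692; exact permutation p = 0.0286). It passed that threshold with edgeR (-0.76) and DESeq2 (-0.76) on read counts, and without Trem2-/- D7 replicate 3 (-0.68). Groups did not overlap for these 2 members of 9, both lower, where 8.33% of all genes had no overlap and 4.78% were lower. The other 7 members differed by between -0.34 and -0.07, with every 95% interval spanning 0. Of these, Entpd1 passed without WT D7 replicate 1 (-0.57, against -0.34 with all libraries). For P2rx4, for example, the interval ran from -0.45 to 0.13, and for Nt5e from -0.69 to 0.34.

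At D0 none of the 9 members passed, where 2.15% of all genes did. The count over all genes, 283, ranged from 107 without WT D0 replicate 4 to 1231 without WT D0 replicate 2. Over all genes 385 had an unadjusted p under 0.05 with limma and 0 an adjusted one, as with edgeR and voom, against 1 with DESeq2, and the members' count was also 0 with edgeR, voom and DESeq2. The differences of the members at D0 ran from -0.26 (Nt5e) to 0.40 (P2ry13). P2ry13 passed when WT D0 replicate 2 (0.62) or Trem2-/- D0 replicate 4 (0.59) was left out.

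The difference between the injury effects of the genotypes was tested directly. It passed the unadjusted threshold for 2 of 9 members, both lower, where 7.79% of all genes passed and 5.02% passed as lower. The total of 1026 genes became 2236 when WT D0 replicate 2 was left out, 609 when WT D0 replicate 4 was, and 662 when WT D7 replicate 3 was. After adjustment 0 genes passed with limma, against 1075 at an unadjusted p under 0.05, and 0 passed with edgeR, 0 with voom and 1 with DESeq2. For P2ry12 the injury effect in Trem2-/- mice was lower than that in WT mice by a log2 difference of -0.88 ± 0.289 SE (95% interval -1.49 to -0.26, limma adjusted p = 0.579). For P2ry13 it was lower by -0.96 ± 0.371 SE (95% interval -1.75 to -0.17, limma adjusted p = 0.579). Both passed the unadjusted threshold when each library was left out in turn, with values from -1.04 to -0.71 for P2ry12 and from -1.174 to -0.79 for P2ry13. P2ry6, at -0.37, passed without WT D7 replicate 1 (-0.52). P2ry14, between Gpr171 and P2ry13 on the chromosome, had a difference of 0.02 (95% interval -0.41 to 0.46). The comparisons share groups, so these tests and those above are not independent of each other.

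Markers of macrophages and of leukocytes as a whole moved with the same groups, and their part in the P2ry12 and P2ry13 results was read only as ratios. At D7, 3 of 10 macrophage markers and 5 of 6 pan-leukocyte markers passed as lower in Trem2-/- mice, where 4.53% of all genes did. The summed levels of both lists did not overlap between the genotypes. Of other leukocyte lists, 4 of 4 B cell and 2 of 5 mast cell markers passed as lower. For neutrophil markers it was 0 of 8, and for T and NK cell markers 0 of 6. None of the 9 platelet and megakaryocyte markers measured passed between genotypes at D7. Their sums ranged from 100 to 152 CPM in WT D7 and from 126 to 160 in Trem2-/- D7, and Treml1 was at 0 in at least 1 library. Per 1000 CPM of summed macrophage markers, a ratio chosen after the values were seen, P2ry12 was 5.80 ± 0.839 CPM in WT D7 and 4.35 ± 0.891 in Trem2-/- D7 (means ± SD of 4). On that scale the groups overlapped (two-sided exact permutation p = 0.0571), as they did for WT D0, at 5.09 ± 1.66, against WT D7 (exact permutation p = 0.571). Per 1000 CPM of pan-leukocyte markers, however, P2ry12 rose with injury in WT mice from 0.524 ± 0.178 to 2.46 ± 0.983 without overlap (log2 difference 2.21, exact permutation p = 0.0286). In Trem2-/- mice it rose likewise, from 0.583 ± 0.276 to 2.15 ± 0.684 without overlap (log2 difference 1.97, exact permutation p = 0.0286). By an exact permutation p under 0.05, 4 of 9 members in WT and 7 of 9 in Trem2-/- mice were higher at D7 on that scale. On the macrophage scale 6 of 9 and 4 of 9 were lower. Shares over all genes were not computed for these ratios, and all 6 pan-leukocyte markers passed as lower after injury in both genotypes. On that pan-leukocyte scale P2ry12 in Trem2-/- D7 was 2.15 ± 0.684, overlapping WT D7 (exact permutation p = 0.657). P2ry13 on the same scale was 1.83 ± 0.353 in WT D7 and 1.77 ± 0.504 in Trem2-/- D7 (exact permutation p = 0.800). Its log2 injury difference there was 0.29 in WT and -0.02 in Trem2-/- mice (exact permutation p = 0.257 and 0.971). That of P2ry14 was -0.45 in WT and 0.52 in Trem2-/- mice (exact permutation p = 0.229 and 0.0286). Per macrophage markers both genes were lower at D7 in WT (-1.67 and -2.41) and Trem2-/- mice (-2.43 and -1.88), each with an exact permutation p of 0.0286. Of the 9 members, 0 differed between genotypes at D7 relative to macrophage markers by an exact permutation p under 0.05, and 2 were higher in Trem2-/- mice relative to pan-leukocyte markers, P2ry6 (log2 difference 0.53) and P2rx7 (0.54). In CPM these 2 genes did not pass between genotypes at D7 (-0.19 for each). No share over all genes was computed for these counts, so they are not read as genotype effects on P2ry6 or P2rx7. The study had reported Csf1r, Adgre1 and Fcgr1 of the macrophage list, and Ptprc of the pan-leukocyte list, as lower in Trem2-/- mice at D7. Sums that hold these genes are lower in Trem2-/- D7 partly by that choice, which raises the ratios there. The count of 0 is therefore not read as equal levels.

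**Figure D4:**
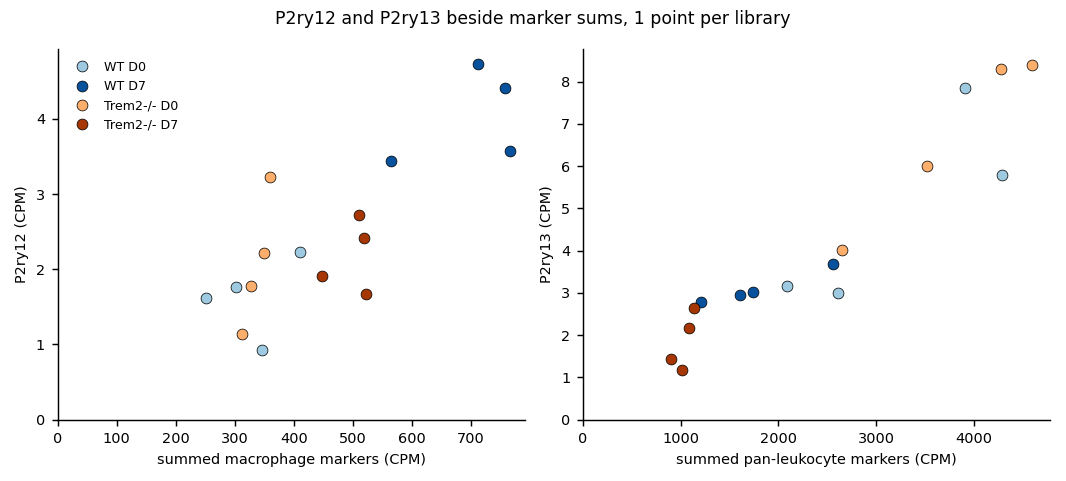
Left, P2ry12 in CPM against the summed CPM of 10 macrophage markers; right, P2ry13 against the summed CPM of 6 pan-leukocyte markers; each point is 1 of 16 libraries, both axes start at 0 and colours give the group. WT D7 libraries lie at 565 to 767 CPM of macrophage markers, to the right of Trem2-/- D7 libraries at 447 to 523.

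The genes whose pattern over the 16 libraries was most like that of P2ry12 were Rnf165 (Pearson r = 0.81), Cbr2 (0.81), Extl1 (0.80), Gpr34 (0.79) and Mvk (0.77). For P2ry13 Slfn1 (0.97) was named, and for P2ry14 Rnase6 (0.95) and Shmt1 (0.95). P2ry6 was most like Ctsz (0.93) and Cbr3 (0.90), and P2rx4 most like Slc9a9 (0.92) and Mrc1 (0.92), the mannose receptor of macrophages. P2rx7 was most like Tril (0.81) and 2410004P03Rik (0.78), and Adora2b most like Nup43 (0.89) and Pdss1 (0.88). Entpd1 was most like Slc11a1 (0.97) and Slc7a11 (0.97), whereas Nt5e was most like Cnnm4 (0.96) and Omd (0.94), which encodes the bone and connective tissue proteoglycan osteomodulin. These correlations are a description over libraries that share injury, genotype and cell makeup. Among the members, P2ry13 and P2ry14 were most alike (r = 0.84, and 0.76 for deviations from the group means), while P2ry12 had r = -0.21 with P2ry13 and -0.47 with P2ry14. P2ry12 was more like P2rx4 (0.65) and P2ry6 (0.60), but only by 0.23 and 0.09 for deviations from the group means.

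The wider pathway was read from lists of 45 genes, of which 39 were measured and tested. After injury 23 of 39 passed in WT mice, 9 higher and 14 lower, where 37.4% of all genes passed. In Trem2-/- mice 28 of 39 passed, 11 higher and 17 lower, where 54.5% of all genes passed. The median differences were -0.25 and -0.30. All 3 other P2Y genes measured had lower values, and 2 passed in WT and 3 in Trem2-/- mice. P2ry1, the ADP receptor that acts beside P2Y12 on platelets, fell from 8.29 ± 2.93 to 3.40 ± 1.04 CPM in WT (-1.06) and from 10.1 ± 4.76 to 2.65 ± 0.530 CPM in Trem2-/- mice (-1.51). P2ry10, a lysophosphatidylserine receptor, fell by 1.01 and 1.38. P2ry2, a receptor for ATP and UTP, passed as lower only in Trem2-/- mice (-0.50, against -0.25 in WT), and the difference between these was not past the threshold. Of the 3 other adenosine receptors, Adora1 (-0.65 in WT and -0.89 in Trem2-/- mice) and Adora3 (-0.45 and -0.97) passed as lower in both genotypes. Adora2a passed in Trem2-/- mice (-0.74), with a value of -0.39 in WT.

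Among the 5 other P2X channel genes, P2rx6 (0.78 in WT, 0.84 in Trem2-/- mice) and P2rx5 (0.53 and 1.03) rose in both genotypes and P2rx3 (-0.71 and -0.68) fell, all at 3.26 CPM or less in each group mean. P2rx1 fell in Trem2-/- mice (-0.68, against -0.44 in WT). Of 7 other extracellular nucleotide enzymes, Enpp1, which forms pyrophosphate from ATP, rose from 68.0 ± 68.0 to 321 ± 64.0 CPM in WT (2.70) and from 27.9 ± 5.198 to 397 ± 21.8 CPM in Trem2-/- mice (3.80). Alpl, the alkaline phosphatase of mineralizing cells, passed as higher in both (1.00 and 1.38), and Bst1 passed as lower (-0.57 and -1.21). Cd38 (-0.66) and Entpd3 (-0.70) passed as lower in WT. Of the 3 intracellular NTPDases, Entpd7 rose in both genotypes (0.74 and 1.02).

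Of 7 genes of adenosine removal and transport, 3 rose and 2 fell in WT mice, and 3 rose and 1 fell in Trem2-/- mice. Slc29a1, the equilibrative nucleoside transporter ENT1, rose from 120 ± 41.0 to 284 ± 40.9 CPM in WT (1.28) and from 86.5 ± 10.7 to 270 ± 25.5 CPM in Trem2-/- mice (1.63). Adk, which phosphorylates adenosine to AMP, rose by 0.92 and 1.35. Slc29a3 rose by 0.60 and 0.41. Dpp4, whose human protein anchors adenosine deaminase at the cell surface, fell by 0.82 and 1.22, and Pnp fell in WT mice by 0.42. For ATP release, Panx3, a pannexin of cartilage and bone cells, rose by 2.83 and 4.47, to 44.4 ± 12.2 CPM in WT D7 and 41.4 ± 18.5 in Trem2-/- D7. Gja1, connexin 43, rose in Trem2-/- mice (1.29, against 0.63 in WT) and Slc17a9, the vesicular nucleotide transporter, fell there (-1.04, against -0.27). Summed chondrocyte genes (6 markers) ranged from 667 to 12178 CPM in WT D0 and from 27924 to 70996 in WT D7, and their part in the changes of Enpp1, Alpl and Panx3 was not tested.

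Of 7 inflammasome genes that act after P2X7, 4 passed as lower in WT, and 6 as lower and 1 as higher in Trem2-/- mice, where 18.2% and 27.9% of all genes passed as lower in WT and Trem2-/- mice. Il1b, the precursor of interleukin-1β, fell from 874 ± 306 to 484 ± 190 CPM in WT (-0.88) and from 1116 ± 429 to 338 ± 72.1 CPM in Trem2-/- mice (-1.66). Pycard, the adaptor ASC, fell by 0.98 and 1.42, Gsdmd, the pore former of pyroptosis, by 0.68 and 1.16, and Casp1 by 0.52 and 1.03. Nlrp3 fell in Trem2-/- mice (-1.17, against -0.36 in WT), and Nek7, a partner of NLRP3, rose there (0.52, against 0.15). All 8 neutrophil markers passed as lower in both genotypes, their sums ranging from 13429 to 30395 CPM in WT D0, 4208 to 13381 in WT D7, 13797 to 39721 in Trem2-/- D0 and 4100 to 6735 in Trem2-/- D7. Their part in these falls was not tested. Between genotypes at D7, 1 of 39 pathway genes passed, Il18 (-0.38, limma adjusted p = 0.627), where 5.72% of all genes passed, and 3 of 39 passed for the difference of the injury effects, Gsdmd (-0.47), Il18 (-0.49) and Nek7 (0.37), a share close to the 7.79% of all genes.

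**Figure D5:**
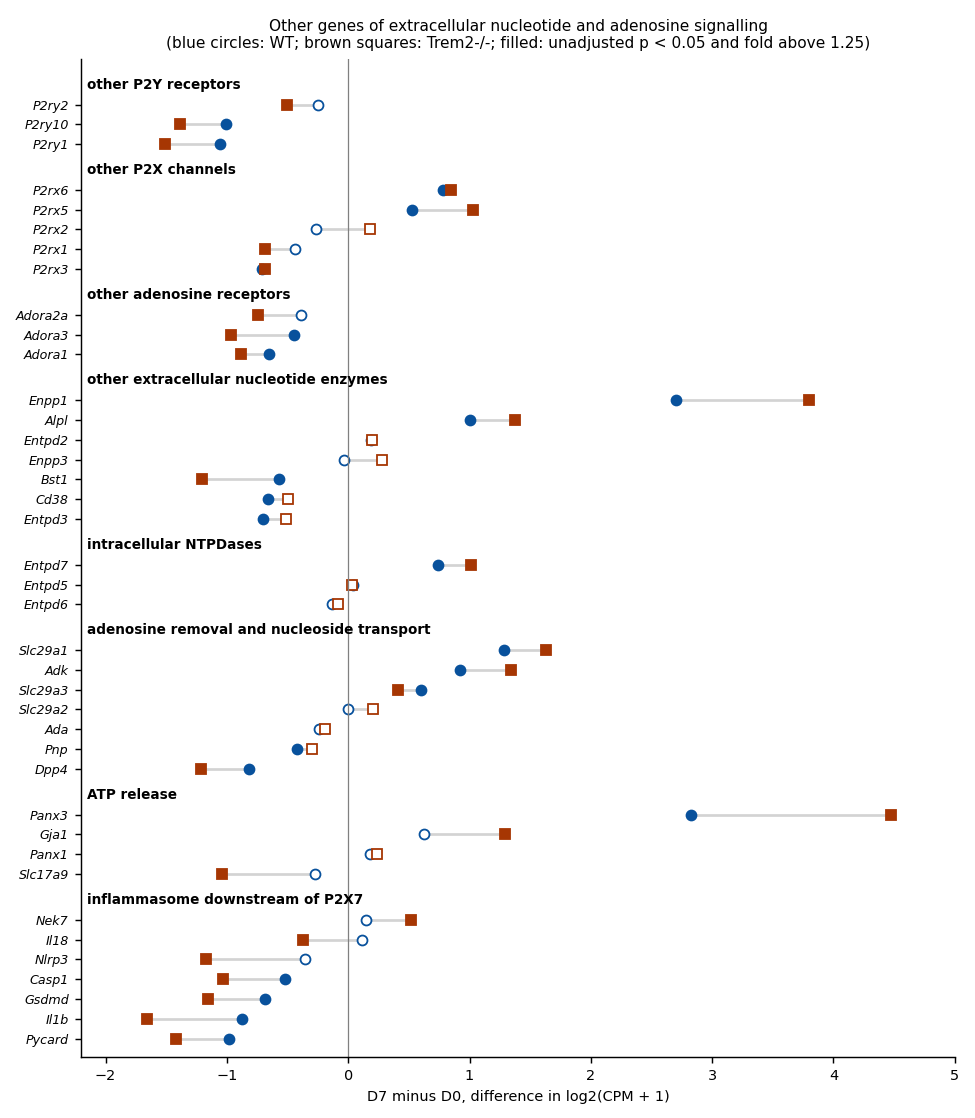
Injury differences (D7 minus D0, log2(CPM + 1)) of the 39 measured pathway genes that are not members, grouped by list; blue circles are WT, brown squares Trem2-/- mice, and filled symbols passed the call rule. Panx3 (2.83 and 4.47) and Enpp1 (2.70 and 3.80) lie farthest to the right.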

How the data were processed

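The deposited table held signal values, TMM-normalized CPM, which the authors made from knee joint RNA-seq with STAR alignment to mm10 (GRCm38), featureCounts and edgeR. The labels and the study's methods name different library kits, and the strand setting is not given in the sources used here. Every value was a whole multiple of 1 read's worth (100% of values within 0.1 read), so read counts were recovered. Fcgr1, listed 2 times with the same values, was used once. Genes that reached 1 CPM in 4 or more libraries were tested with limma 3.58.1 (R 4.3.3; trended eBayes) on log2(CPM + 1), the 4 groups as 1 factor, and p-values were adjusted over 13173 genes by the Benjamini-Hochberg method. The study's call rule was used. A log2 difference after adding 1 understates changes of low genes. edgeR 4.0.16, voom and DESeq2 1.42.0 on recovered reads were alternatives, beside other pseudocounts, filters, scalings, a replicate block and leaving out each library. Single values were also tested by two-sided exact permutation over 70 assignments. The fit was checked on simulated counts.

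Replicate libraries differed by more than counting noise (chi-square per degree of freedom at least 10.4). Nothing in the labels ties libraries to separate mice, so p-values measure the spread between libraries. Named genes were the members, Trem2, neighbours of P2ry12, genes of like pattern (5 for P2ry12 and 2 for every other member, of which 1 is not reported here), and called pathway genes, up to 4 per list and comparison by p. Members, lists and tests were chosen with earlier results of these data known. Exon lengths are GENCODE M21 unions.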

Additional observations from a re-analysis of the deposited data

Results flagged for a closer look

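Injury effects that differed between the genotypes by the unadjusted test of the difference itself were those of P2ry12 (-0.88), P2ry13 (-0.96), Gpr171 (-0.75), Gsdmd (-0.47), Il18 (-0.49) and Nek7 (0.37), each as the log2 injury effect in Trem2-/- mice minus that in WT mice. None passed adjustment over all genes with limma.

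Single libraries that stood apart from the other 3 of their group, by Dixon's gap ratio at the 95% level, were found in 7 of 164 groups over 41 genes. Chance alone gives about 1 in 20, or 8.2 groups. In Trem2-/- D7, P2rx4 was 33.0 CPM in replicate 1 against 25.7 to 26.4 (gap ratio 0.909), Nt5e was 528 CPM in replicate 3 against 341 to 367 (0.858), and Slc29a1 was 308 CPM in replicate 3 against 254 to 259 (0.896). In WT D7 replicate 3, Igsf10 was 89.3 CPM against 170 to 185 (0.844), and Adora3 was 1.72 CPM against 0.594 to 0.696 (0.909). In Trem2-/- D0 replicate 1, Adora3 was 2.55 CPM against 1.85 to 1.97 (0.836), and Enpp1 was 20.2 CPM against 29.9 to 30.9 (0.907).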

How the results depend on the processing

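No member or pathway gene named reversed a called direction under any alternative tried. The calls of P2ry12 held in WT injury (0.45 to 1.35), between genotypes at D7 (-0.88 to -0.33) and for the difference of the injury effects (-1.23 to -0.42). Of 1008 member values under alternatives, 974 kept their side of the threshold, 18 gained and 16 lost it. Between genotypes at D7 the member count was 2, not 1, with a pseudocount of 0.1, eBayes without trend, the replicate block, edgeR, voom, DESeq2 or only the groups compared, P2ry13 being the added member. The pathway count there, 1, became 3 with the pseudocount of 0.1, 0 with a pseudocount of 5, 0 with quantile normalization, 2 with the replicate block, 4 with edgeR, 0 with voom, 3 with DESeq2, 6 with only the groups compared and 0 with a fold change over 1.5. At D0 the pathway count, 5, became 2 with only the groups compared and 2 with a fold change over 1.5. For the difference of the injury effects it went from 3 to 5 with edgeR, 5 with DESeq2 and 0 with a fold change over 1.5. Counts over all genes moved by over 1.5 times between genotypes at D7 (753 to 1366 with only the groups compared and 340 with a fold change over 1.5), at D0 (283 to 466 with edgeR, 547 with DESeq2, 164 with the pseudocount of 5, 149 with only the groups compared and 131 with a fold change over 1.5), for the difference of the injury effects (1026 to 635 with a fold change over 1.5) and in WT injury (4933 to 2985 with a fold change over 1.5, and from 3752 to 1736 after adjustment with only the groups compared). Leaving out 1 library moved the counts over all genes to between 480 (without WT D7 replicate 3) and 1123 (without WT D7 replicate 2) at D7, 107 and 1231 at D0, and 609 and 2236 for the difference of the injury effects. The causes were not tested.

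Leaving out each library in turn gave 4 to 8 members in WT injury, with 8 without WT D0 replicate 1, 4 to 5 in Trem2-/- injury, 1 to 2 between genotypes at D7, 0 to 1 at D0 and 2 to 3 for the difference of the injury effects. Pathway counts ranged from 18 to 25 in WT injury, 25 to 29 in Trem2-/- injury, 0 to 3 at D7, 0 to 7 at D0 (none without WT D0 replicate 4) and 0 to 9 for the difference of the injury effects, with 0 without WT D0 replicate 1 or Trem2-/- D0 replicate 1 and 9 without WT D0 replicate 2.

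The libraries share only a replicate number. Deviations from group means correlated between same-numbered libraries with a median r of 0.07 (-0.51 to 0.41 over 24 pairs), and the best match had the same number in 16 of 48 cases. With the replicate block Entpd1 no longer passed in Trem2-/- injury (-0.62) and P2ry13 passed between genotypes at D7 (-0.55), giving 5 members in Trem2-/- injury and no other change of a member call. P2ry14 rested on as few as 12 reads in a library, and P2ry12 and P2ry13 on as few as 17.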

Other observations

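Before injury, 5 of the 39 pathway genes passed the call rule between the genotypes with limma, and none passed after adjustment, where 2.15% of all genes passed the call rule. Panx3 was 1.03 ± 1.31 CPM in Trem2-/- D0 against 10.4 ± 11.6 in WT D0 (-1.84, exact permutation p = 0.200), Alpl 49.0 ± 15.5 against 98.4 ± 43.4 (-0.89, exact p = 0.143), Adk 31.97 ± 1.23 against 44.2 ± 10.5 (-0.43, exact p = 0.0286) and Slc29a1 86.5 ± 10.7 against 120 ± 41.0 (-0.42, exact p = 0.286). P2rx1, an ATP-gated channel of platelets and neutrophils, was higher, at 12.1 ± 1.16 against 8.33 ± 2.63 CPM (0.53, exact permutation p = 0.0857). In the same libraries 3 of 6 chondrocyte markers passed as lower, with sums of 1002 to 3816 CPM in Trem2-/- D0 and 667 to 12178 in WT D0, and their part in these differences was not tested. Without WT D0 replicate 4, 0 of the 39 genes passed.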
